A study of Mus musculus with 12 samples.

Results

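Fibroblast growth factor (FGF) signalling was followed in the facial mesenchyme of mouse embryos through 10 genes: the ligands Fgf7, Fgf9, Fgf10 and Fgf18, the receptors Fgfr1, Fgfr2 and Fgfr3, and the ETS transcription factor genes Etv1, Etv4 and Etv5. The genes were taken by symbol from a given list, and all 10 were found among the 53392 gene identifiers of the deposited tables. Polyadenylated RNA was sequenced in 12 libraries of embryos of the 129S4 background, in 4 groups of 3.

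Palatal shelf mesenchyme at E13.5 came from Pdgfra+/+ embryos, called wild type here, and from PdgfraPI3K/PI3K embryos. The PI3K allele is known as a knock-in of the PDGFRα receptor gene that was built to remove binding of phosphatidylinositol 3-kinase, and it is present in every cell. Maxillary process mesenchyme at E11.5 came from Srsf3fl/fl;Wnt1-Cre+/+ embryos, called controls, and from Srsf3fl/fl;Wnt1-Cre+/Tg embryos, called cKO-labelled libraries after the conditional knockout (cKO) the labels name. All 6 maxillary libraries thus carried both floxed alleles of Srsf3, a gene for an RNA splicing factor, and the groups differed in the Wnt1-Cre transgene. Wnt1-Cre acts in the neural crest and its descendants, so cells of another origin keep Srsf3. Overlying ectoderm was digested away with trypsin, per the labels' protocols. The series text calls the libraries of a group biological replicates, and the labels do not say whether embryos were pooled, so a p-value measures the spread between these libraries.

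FGFs are secreted proteins that bind receptor tyrosine kinases together with heparan sulfate and activate the RAS-ERK cascade. In the developing face, FGF7 and FGF10 are made by mesenchyme and act mainly on the IIIb form of FGFR2 in the epithelium, while FGF9 and FGF18 act mainly on IIIc receptor forms in mesenchyme. The genes Etv4 and Etv5, and in many tissues Etv1, are switched on by FGF signalling and are widely used as its readout, as are the feedback inhibitors of the Sprouty, Spred and Dusp families.

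The exon that marks the epithelial IIIb form of FGFR2, the form to which FGF7 and FGF10 bind, is shown because the study concerned splicing and because a gene total cannot see its use. It codes for a part of the ligand-binding domain and spans chr7:130199758-130199905 (148 bases) on the minus strand of GRCm38. The exon is written 5′ to 3′ as in the transcript, all in lower case.
Fgfr2 IIIb exon: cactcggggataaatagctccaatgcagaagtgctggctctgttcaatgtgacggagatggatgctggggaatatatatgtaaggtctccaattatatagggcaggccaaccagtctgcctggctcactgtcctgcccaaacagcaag
Of 17 coding Fgfr2 transcripts in the GENCODE annotation, 10 held this exon. The deposited values are totals per gene over all transcripts, so every Fgfr2 level given here sums all forms, and which form was present was not analysed here.

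Promoter sequence is shown for the 2 members with the smallest unadjusted p in the Srsf3 comparison (Fgf10 and Etv5) and for a pair of ligands with the largest difference between the tissues (Fgf9 and Fgf18). Each is the 250 bases before the start of the gene model in RefSeq (build GRCm38.p6), written 5′ to 3′ on the strand of the gene, with capitals for the GC box GGGCGG on either strand.
Fgf9, chr14:58072436-58072685, plus strand: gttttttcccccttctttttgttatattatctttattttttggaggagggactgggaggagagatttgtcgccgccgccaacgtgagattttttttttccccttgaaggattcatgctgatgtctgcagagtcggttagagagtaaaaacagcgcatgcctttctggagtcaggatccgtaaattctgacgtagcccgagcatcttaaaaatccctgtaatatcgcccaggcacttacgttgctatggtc
Fgf10, chr13:118714449-118714698, plus strand: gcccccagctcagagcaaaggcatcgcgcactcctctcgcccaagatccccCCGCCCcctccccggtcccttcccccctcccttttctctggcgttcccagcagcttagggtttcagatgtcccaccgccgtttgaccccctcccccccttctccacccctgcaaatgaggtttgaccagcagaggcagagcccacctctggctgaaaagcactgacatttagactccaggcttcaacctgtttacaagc
Fgf18, chr11:33147401-33147650, minus strand: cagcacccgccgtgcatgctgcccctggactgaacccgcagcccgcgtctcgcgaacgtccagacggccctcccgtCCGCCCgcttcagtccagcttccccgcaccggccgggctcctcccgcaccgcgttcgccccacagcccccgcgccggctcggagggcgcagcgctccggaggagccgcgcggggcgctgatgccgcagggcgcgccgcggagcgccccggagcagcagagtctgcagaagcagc
Etv5, chr16:22439571-22439820, minus strand: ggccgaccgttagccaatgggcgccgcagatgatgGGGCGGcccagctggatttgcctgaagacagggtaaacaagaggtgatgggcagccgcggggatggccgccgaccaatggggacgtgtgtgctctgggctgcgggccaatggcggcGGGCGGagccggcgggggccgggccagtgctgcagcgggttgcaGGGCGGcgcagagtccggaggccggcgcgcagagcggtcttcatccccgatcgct
The GC box was found once in the Fgf10 and Fgf18 windows, 3 times in the Etv5 window shown and 0 times in that of Fgf9. Another Etv5 window (chr16:22438369-22438618, minus strand), not shown, held 0 GC boxes and 62% G and C. Among the 11 windows of the 8 members with an entry, 5 held the GC box, against 32.7% of all 32851 windows of this length. The ETS consensus CCGGAAGT was in 0 of the 11 (2.88% of all windows) and TATAAA in 1 (12.4% of all windows), searched on both strands. No window of a member held more than 1 kind of these motifs, and some GC boxes of Fgfr3 overlapped each other. G and C made up 77.2% of the Fgf18 window, 71.2% of the Etv5 window shown, 61.2% of that of Fgf10 and 44.8% of that of Fgf9.

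Libraries held 30509338 to 37406960 estimated counts in the palatal shelf and 15932541 to 27887654 in the maxillary process. Levels are given in TPM, which scales for transcript length and depth, or in CPM, counts scaled for depth alone. Summed markers of facial mesenchyme (11 genes) were at 4172 to 4911 TPM in the palatal shelf and 2240 to 3875 TPM in the maxillary process, which fits the labelled tissue. Markers of ectoderm (15 genes) summed to 448 to 1027 TPM in the palatal shelf and 3.76 to 23.2 TPM in the maxillary process, and none was at 0 in a whole group. The palatal shelf libraries thus still held ectoderm transcripts although the protocols describe its digestion. Levels given for the palatal shelf are therefore not those of mesenchyme alone. Per library, Epcam, an epithelial adhesion gene, was at 60.4, 81.1 and 74.2 TPM in wild-type palatal shelves and 1.84, 0.904 and 0.502 TPM in maxillary controls. Srsf3 totals were 597.3, 577.8 and 546.8 CPM in the controls and 467.8, 669.0 and 621.6 CPM in the cKO-labelled libraries, a log2 fold change of 0.03 (SE 0.14, edgeR adjusted p = 0.9539). The mean total was not lower in those libraries. A total includes reads from parts of the gene outside the floxed stretch, whose position the labels do not give, so it is no check of the genotype.

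Fgfr1 was the most abundant of the 10 genes in all 4 groups, and Fgfr1 and Fgfr2 lay above the 4 ligands in each. In TPM, a level per transcript length that can be compared between genes, wild-type palatal shelves held Fgfr1 at 246.5 ± 13.9 (SD, n = 3), Fgfr2 at 112.2 ± 21.8 and Fgfr3 at 20.8 ± 12.9, a level whose range overlapped that of Fgf18 and Fgf10. Of the Etv genes, Etv5 was at 46.5 ± 23.3 TPM, Etv4 at 42.4 ± 21.7 TPM and Etv1 at 11.9 ± 3.43 TPM. Etv5 and Etv4 did not differ beyond their spread, and neither did Etv1 and the ligands. Of the ligands, Fgf18 was at 12.9 ± 3.77 TPM, Fgf10 at 11.7 ± 3.97 TPM, Fgf9 at 8.15 ± 3.88 TPM and Fgf7 at 6.28 ± 4.73 TPM, a set of levels whose ranges overlapped.

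**Figure D1:**
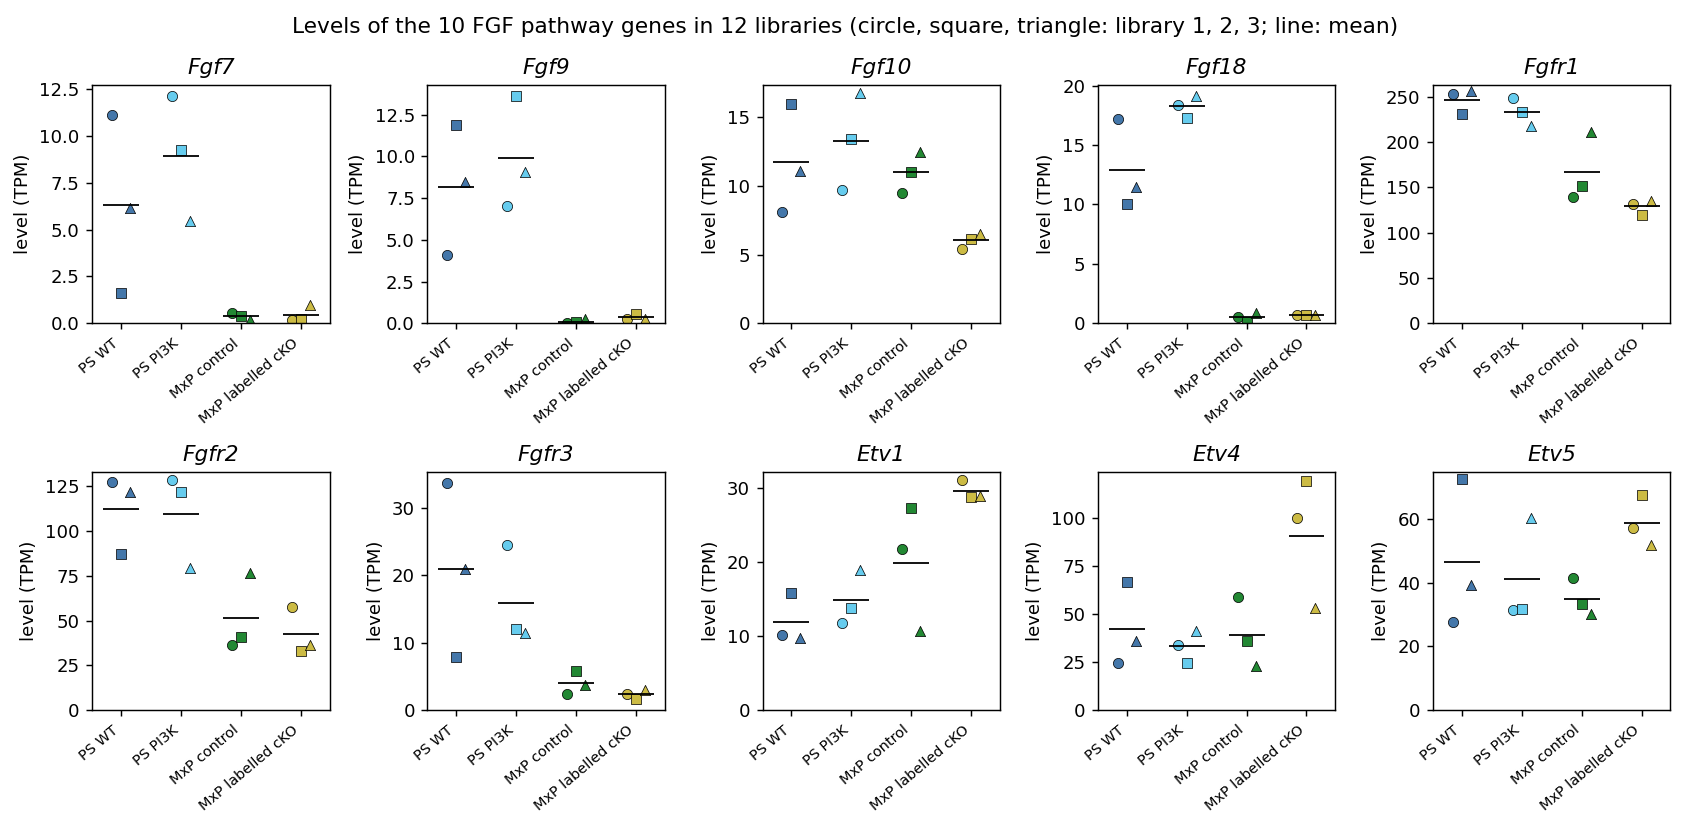
Level of each gene (vertical axes, TPM) in the 12 libraries by group, with circle, square and triangle for libraries 1, 2 and 3 and a line at the group mean; PS is palatal shelf, MxP maxillary process. Fgf7, Fgf9 and Fgf18 lie below 1 TPM in every maxillary library, while Fgf10 is present in all 12.

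The 4 ligands were present in different proportions in the 2 tissues. In maxillary controls, Fgf10 made up 90.1, 94.8 and 90.4% of the summed TPM of the 4 ligands, and in wild-type palatal shelves 20.0, 40.4 and 29.8%. In the wild-type palatal shelf Fgf18 made up 32.9% of the sum and Fgf9 21.0% on average, and Fgf7 made up 27.4, 4.11 and 16.5%. Summed ligand TPM was 37.2 to 40.4 in wild-type palatal shelves and 10.5 to 13.8 in maxillary controls. Shares within a sum depend on each other, and they are given as descriptions without a test.

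**Figure D2:**
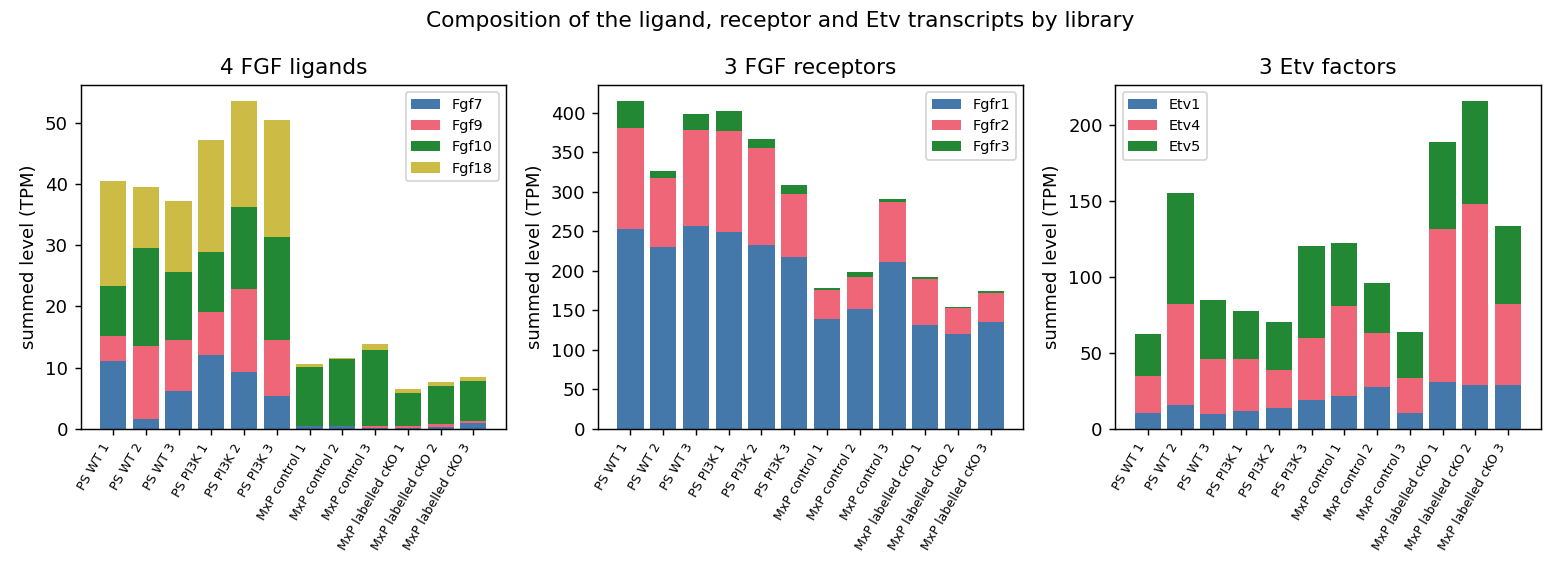
Summed level (vertical axes, TPM) of the 4 ligands, 3 receptors and 3 Etv genes in each library, stacked by gene. Fgf10 makes up nearly the whole ligand column in the maxillary controls (91.8% on average), and Fgfr1 is the largest part of every receptor column.

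Fgf10, which drives epithelial outgrowth in lung, limb and palate, was the member with the smallest p in the Srsf3 comparison. Its normalised level was 23.4, 27.1 and 28.7 CPM in the maxillary controls and 13.6, 15.5 and 16.1 CPM in the cKO-labelled libraries. The groups did not overlap, and each cKO-labelled library lay below every control. The means were 26.4 ± 2.74 and 15.1 ± 1.31 CPM (SD, n = 3), a log2 fold change of -0.81 (SE 0.13, 95% interval -1.12 to -0.50). Fgf10 had an unadjusted p of 0.000364, and the adjusted p was 0.1028 by edgeR's quasi-likelihood test with Benjamini-Hochberg adjustment over 14254 genes, so it did not pass the false discovery rate (FDR) of 0.05. DESeq2 gave the same fold change (-0.81) with an adjusted p of 0.0006891, and edgeR without a filter on low counts an adjusted p of 0.031. With any 1 library left out, the fold change of Fgf10 stayed between -0.88 and -0.74 and its adjusted p lay between 0.123 and 0.5304.

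Fgf7, a mesenchymal ligand close to FGF10 in sequence and receptor use, was near the limit of detection in the maxillary process. It was not tested there by edgeR with its default filter. Its estimated counts were 6, 6 and 5 in the controls, with 5, 8 and 8 in the cKO-labelled libraries. Fgf9, a ligand made by epithelium and mesenchyme, had estimated counts of 0, 3 and 8 in the controls against 5, 24 and 7. Fgf18, which acts in palate and bone formation, had 4, 1 and 9 against 8, 10 and 7. The 3 ligands did not pass the filter on low counts, and no difference between the maxillary groups was detectable for them at this depth.

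The receptors had no difference between the maxillary groups larger than the spread of their libraries. Fgfr1, the main receptor of facial mesenchyme, was at 316.2, 347.9 and 457.2 CPM in the controls and 307.2, 287.1 and 325.0 CPM in the cKO-labelled libraries. Control 3 stood above all others, and the ranges overlapped (log2 fold change -0.29, SE 0.14, edgeR adjusted p = 0.4813). Fgfr2 was at 64.7, 73.1 and 125.2 CPM in the controls and 97.6, 55.7 and 61.0 CPM in the cKO-labelled libraries, with 1 high library in each group (log2 fold change -0.30, 95% interval -0.99 to 0.40, edgeR adjusted p = 0.7352). Fgfr3, a receptor of cartilage and epithelium, was low, at 5.18, 4.11 and 6.08 CPM against 4.96, 4.20 and 6.90 CPM. Its log2 fold change was 0.06 with an interval of -0.58 to 0.69, and by limma on log2(TPM + 1) and log2(TPM + 0.1) the sign turned (-0.52 and -0.67).

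The 3 Etv genes had positive fold changes in the same comparison, and none passed the FDR of 0.05. Etv5 was at 98.7, 75.9 and 49.0 CPM in the controls and 122.5, 159.4 and 122.9 CPM in the cKO-labelled libraries. The groups did not overlap, and the means of 74.5 ± 24.9 and 134.9 ± 21.2 CPM gave a log2 fold change of 0.86 (SE 0.24, 95% interval 0.29 to 1.42). The unadjusted p for Etv5 was 0.008386 and the adjusted p was 0.2853 by edgeR's quasi-likelihood test; DESeq2 gave an adjusted p of 0.01481. Etv4 was at 48.0, 30.0 and 14.6 CPM in the controls and 72.6, 86.2 and 47.8 CPM in the cKO-labelled libraries. Its groups overlapped by the narrow margin of control 1 over cKO library 3, and the log2 fold change was 1.17 (SE 0.41, 95% interval 0.22 to 2.11, edgeR adjusted p = 0.3512). Etv1 was at 37.9, 37.2 and 17.8 CPM in the controls and 44.3, 49.4 and 46.0 CPM in the cKO-labelled libraries, where the 3 libraries lay close together and above every control. The log2 fold change of Etv1 was 0.59 (SE 0.26, 95% interval -0.02 to 1.21, edgeR adjusted p = 0.4251).

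Control 3 had the lowest level of all 3 Etv genes among the controls and the highest Fgfr1, Fgfr2 and Fgf10. Without control 3, the log2 fold changes fell to 0.64 for Etv5, 0.83 for Etv4 and 0.32 for Etv1. Without control 1 they were 1.12, 1.64 and 0.77.

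In all, 0 of the 7 members tested in the maxillary comparison passed the FDR of 0.05 by edgeR, where 12 of 14254 genes did (0.0842%; 0.0561% higher and 0.0281% lower). At an unadjusted p under 0.05 there were 3 members (Fgf10, Etv4 and Etv5), beside 12.2% of all genes tested, and DESeq2 called 2 members (Fgf10 and Etv5) among 376 of 23499 genes. The groups did not overlap for 3 members (Fgf10, Etv1 and Etv5), beside 18.1% of all genes (8.76% higher and 9.37% lower). The median log2 fold change was 0.06 over the members and 0.00 over all genes tested.

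**Figure D3:**
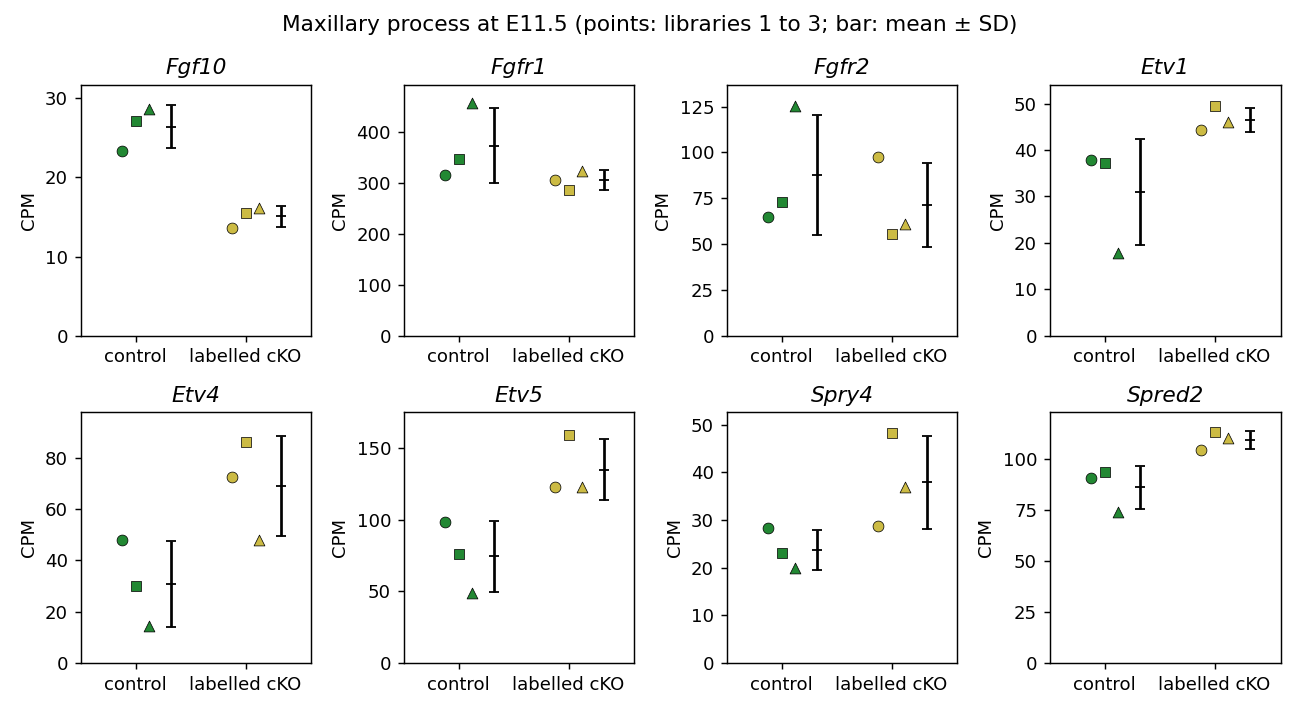
Normalised level (vertical axes, CPM, from 0) of 6 members and of the feedback inhibitors Spry4 and Spred2 in maxillary process libraries, with circle, square and triangle for libraries 1, 2 and 3 and bars for the mean ± SD. The cKO-labelled libraries lie below every control for Fgf10 and above every control for Etv1, Etv5, Spry4 and Spred2.

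Feedback inhibitors, which FGF signalling induces and which damp the RAS-ERK cascade, were given by a list of 11 genes, of which 10 were in the table and tested. All 10 had a log2 fold change above 0 in the cKO-labelled libraries, beside 7232 of all 14254 genes, with a median of 0.26 beside 0.00 over all genes, and 0 passed the FDR of 0.05. Spred2, which had the smallest p, was at 86.4 ± 10.6 CPM in the controls and 109.6 ± 4.53 CPM in the cKO-labelled libraries (log2 fold change 0.34, edgeR adjusted p = 0.3104). Spry4 was at 28.3, 23.1 and 20.0 CPM in the controls and 28.8, 48.2 and 36.9 CPM in the cKO-labelled libraries, where cKO library 1 stood barely above control 1. An unadjusted p under 0.05 was found for 3 of the 10, beside 12.2% of all genes.

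No gene of the other pathway lists passed the FDR of 0.05 in the maxillary comparison. Among other FGF ligands, 1 of 14 was tested, Fgf2, a broadly acting ligand without a signal peptide. It was at 8.48, 9.79 and 25.3 CPM in the controls and 1.96, 5.55 and 6.46 CPM in the cKO-labelled libraries (log2 fold change -1.64, SE 0.55, edgeR adjusted p = 0.3295). Fgf13, of the intracellular FGF homologous factors (2 of 4 tested), was at 22.6 ± 3.65 and 12.5 ± 4.72 CPM. Flrt2, of the other receptors and co-receptors (6 of 9 tested), codes for a membrane protein that can bind FGF receptors. It was at 87.8, 87.2 and 62.8 CPM in the controls and 200.3, 118.9 and 122 CPM in the cKO-labelled libraries (log2 fold change 0.89, edgeR adjusted p = 0.2646).

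Sulf2, an enzyme that trims sulfate groups from heparan sulfate outside the cell, had a smaller p than any other gene of these lists. It was at 697, 781.4 and 828.8 CPM in the controls and 578.5, 522.8 and 519.5 CPM in the cKO-labelled libraries, without overlap (log2 fold change -0.51, SE 0.10, edgeR adjusted p = 0.1481). Of the 11 heparan sulfate enzymes, 1 had a fold change above 0 and 10 below, with a median of -0.04. Of the heparan sulfate core proteins (9 of 10 tested), 2 lay above 0 and 7 below, with a median of -0.12, and Sdc3 was at 198.7 ± 9.16 and 158.9 ± 19.8 CPM. The receptor adaptors and RAS-ERK core (18 genes) had a median of 0.05, and Braf, a kinase of the cascade, was at 56.1 ± 1.58 and 66.6 ± 1.63 CPM. Other ETS factors (14 of 15 tested) had a median of 0.13, and Ets2 was at 61.2 ± 7.25 and 84.2 ± 21.5 CPM.

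Markers of other cells were also set against each other between the maxillary groups, and 0 of them passed the FDR of 0.05. The 8 endothelial markers summed to 169.6, 173.2 and 180.2 TPM in the controls and 427.3, 250.5 and 217.1 TPM in the cKO-labelled libraries. All 8 had groups without overlap, beside 18.1% of all genes tested. Ectoderm markers summed to 10.1, 3.95 and 3.76 TPM against 19.7, 11.6 and 23.2 TPM, with 9 of 10 tested genes above 0. Several of these 10, among them Cdh1, Krt5, Perp, Esrp1 and Cldn6, passed the filter on low counts through the cKO-labelled libraries alone. They could only be tested as higher in the cKO-labelled libraries, so the count of 9 supports nothing. Facial mesenchyme markers summed to 2728, 3177 and 3875 TPM against 2240, 2467 and 2770 TPM, with 9 of 11 below 0. Red blood cell markers reached 11633 to 21036 TPM and 12839 to 34250 TPM, and markers of neurons and glia 51.9, 81.4 and 170 TPM against 50.2, 39.1 and 50.5 TPM. Summed levels were 286.7 to 330.3 and 344.9 to 483.9 TPM for osteochondrogenic markers, 23.4 to 25.2 and 22.7 to 45.9 TPM for macrophage markers, and 5.61 to 9.52 and 9.38 to 19.9 TPM for skeletal muscle markers. Their part in the values of Fgf10 and the Etv genes was not tested. In bulk tissue, fewer cells of a type and less RNA per cell cannot be told apart.

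In the palatal shelf, the PI3K allele of Pdgfra came with no called difference in any member. Of the 10 members, 0 passed the FDR of 0.05 by edgeR, where 0 of 16525 genes did (0%), and 0 had an unadjusted p under 0.05, beside 354 of all genes (2.14%). DESeq2 called 4 genes, of which 0 were members. Pdgfra itself was at 491 ± 18.6 CPM in wild-type and 497.6 ± 57.0 CPM in mutant libraries, as a total that does not tell the alleles apart. In TPM it was at 138.2 (lowest 130.3, highest 144.5) in wild type and 209.9 (lowest 186, highest 243.1) in mutant libraries, without overlap, and its effective length differed between the genotypes.

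Among the ligands, Fgf18 was the member whose groups did not overlap in this comparison (1 of 10, beside 6.23% of all genes, 3.12% higher and 3.11% lower). It was at 9.23, 5.31 and 5.97 CPM in wild type against 9.81, 9.34 and 9.89 CPM in PI3K libraries, with wild-type library 1 just below the PI3K libraries. The log2 fold change of Fgf18 was 0.50 (SE 0.23, 95% interval -0.03 to 1.04, edgeR unadjusted p = 0.0625, adjusted p = 0.9997). Fgf7 was at 9.17, 1.55 and 5.73 CPM against 11.6, 8.86 and 5.18 CPM (log2 fold change 0.64, 95% interval -0.74 to 2.02), and wild-type library 2 held the lowest value of all 6. Fgf9 was at 5.17, 13.7 and 10.0 CPM against 8.64, 17.1 and 10.5 CPM (log2 fold change 0.33, 95% interval -0.58 to 1.24). Fgf10 was at 18.9, 36.8 and 25.2 CPM against 22.6, 31.6 and 38.0 CPM (log2 fold change 0.19, 95% interval -0.46 to 0.84). For Fgf7, Fgf9 and Fgf10 the spread within a group was larger than the difference between groups, and each interval covers both directions. With 1 library left out, the log2 fold change ran from 0.21 to 1.24 for Fgf7, from 0.00 to 0.49 for Fgf10 and from 0.36 to 0.79 for Fgf18, and was lowest for Fgf7 and Fgf18 without wild-type library 2 and highest without wild-type library 1.

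Of the members, Fgfr1 had the narrowest interval in the palatal shelf. It was at 553.3, 499.8 and 545.7 CPM in wild type against 536.9, 499.4 and 458.0 CPM in PI3K libraries, and the interval for the log2 fold change ran from -0.31 to 0.12. Fgfr2 was at 218.1, 139.0 and 193.2 CPM against 210.3, 209.9 and 125.3 CPM, with 1 low library in each group (log2 fold change -0.01, 95% interval -0.57 to 0.55). Fgfr3 was at 53.2, 11.4 and 30.3 CPM against 43.8, 23.9 and 17.6 CPM, a spread of several fold within each genotype (log2 fold change -0.16, 95% interval -1.44 to 1.13). Osteochondrogenic markers (12 genes), such as the cartilage collagen gene Col2a1, summed to 1888, 287.6 and 474.5 TPM and to 1112, 493.4 and 569 TPM in the same libraries. In both genotypes library 1 was highest for Fgfr3 and for that sum, and the part of the markers in the Fgfr3 values was not tested.

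Etv4 and Etv5 varied more among libraries of the same genotype than their means differed between genotypes. Etv5 was at 62.5, 146.3 and 80.1 CPM in wild type against 63.5, 72.4 and 130.8 CPM in PI3K libraries (log2 fold change -0.11, 95% interval -0.99 to 0.76). Etv4 was at 17.1, 46.4 and 22.5 CPM against 22.8, 20.1 and 29.2 CPM (log2 fold change -0.26, 95% interval -1.10 to 0.58). Wild-type library 2 and PI3K library 3 were the high libraries of their groups for both genes. Etv1 was at 15.3, 19.5 and 12.2 CPM against 17.2, 18.5 and 24.0 CPM (log2 fold change 0.35, 95% interval -0.14 to 0.83), and wild-type library 2 and PI3K library 3 were again highest in their groups. PI3K library 3 also had the lowest ectoderm markers (448 TPM against 1023 and 1027 TPM in the other PI3K libraries), while wild-type library 2 was at 883.8 TPM, between the other wild-type libraries at 781.9 and 1020 TPM, and the part of these cells in the values was not tested.

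None of the pathway genes outside the members passed the FDR of 0.05 in the palatal shelf, and every adjusted p named here is 0.9997 by edgeR. Fgf5, a ligand known for its role in the hair cycle, was at 0.104 ± 0.116 CPM in wild type against 1.23 ± 0.768 CPM in PI3K libraries. It passed the filter on low counts through the PI3K libraries alone, so it could only be tested as higher there. Fgf5 was the 1 of 7 other ligands tested with an unadjusted p under 0.05 by edgeR, beside 2.14% of all genes, and that count supports nothing. Flrt3, a relative of Flrt2, was at 68.8 ± 3.03 and 83.2 ± 1.57 CPM without overlap (log2 fold change 0.27). Fgf11 had a log2 fold change of 0.52 among the 4 FGF homologous factors, Gpc5 of 0.45 among the 10 heparan sulfate core proteins and Sulf2 of 0.32 among the 11 heparan sulfate enzymes. Nras had one of -0.20 among the 18 adaptors and RAS-ERK genes, Spry4 one of -0.31 among the 10 feedback inhibitors and Fli1 one of 0.42 among the 14 other ETS factors. The medians of these lists lay between -0.04 and 0.38, beside -0.01 over all genes.

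The markers of other cells gave 0 calls between the palatal shelf genotypes. Their sums in wild type and PI3K libraries were 237.9 to 264.8 and 264 to 284 TPM for endothelium, 4690 to 10520 and 4627 to 7099 TPM for red blood cells, and 41.6 to 102.8 and 43.0 to 78.9 TPM for macrophages. Skeletal muscle markers were at 67.5, 4.85 and 9.23 TPM and 280.1, 40.1 and 151.2 TPM, with all 8 above 0 (median log2 fold change 2.63). Myod1 and Myf5 among them were too low to pass the filter on low counts through the wild-type libraries, so the count of 8 supports nothing. Markers of neurons and glia were at 32.4 to 41.6 and 34.9 to 62.1 TPM.

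The tissues were then set against each other, wild-type palatal shelves at E13.5 against control maxillary processes at E11.5, to describe where and when each member was present. Stage, tissue, Srsf3 and Pdgfra alleles and the sequencing lane in the labels differ together here and cannot be told apart. The wild-type and control libraries are also those of the comparisons already given. Of 15752 genes, 50.6% passed the FDR of 0.05, with 27.1% higher and 23.4% lower in the palatal shelf, so a call is common in this comparison. Of the 10 members, 7 passed, 6 higher and 1 lower in the palatal shelf, and the same number had an unadjusted p under 0.05 (57.2% of all genes). The groups did not overlap for 6 members, all higher in the palatal shelf, beside 62.1% of all genes (33.2% higher and 28.9% lower).

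Fgf9, Fgf18 and Fgf7 were the ligands higher in the palatal shelf. Fgf9 was at 9.38 ± 4.14 CPM in the palatal shelf and 0.184 ± 0.185 CPM in the maxillary process (log2 fold change 5.51, 95% interval 3.95 to 7.07, edgeR adjusted p = 0.0007122). Fgf18 was at 6.68 ± 2.07 against 0.247 ± 0.178 CPM (log2 fold change 4.67, 95% interval 3.50 to 5.84, edgeR adjusted p = 0.0004556). Fgf7 was at 5.36 ± 3.74 against 0.330 ± 0.0875 CPM (log2 fold change 4.03, 95% interval 2.36 to 5.70, edgeR adjusted p = 0.003157). These 3 genes passed the filter on low counts through the palatal shelf alone, where each exceeded every maxillary library, so they could only have been tested as higher there and their number supports nothing. Fgf10 lay at 26.3 ± 8.81 and 27.5 ± 2.46 CPM, within the spread of its libraries (log2 fold change -0.06, 95% interval -0.59 to 0.46).

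All 3 receptors were higher in the palatal shelf, without overlap. Fgfr3 was 5.76-fold higher, at 30.9 ± 20.5 against 5.34 ± 0.971 CPM (edgeR adjusted p = 0.00548). Fgfr2 was 1.96-fold higher, at 179.1 ± 39.9 against 91.1 ± 32.5 CPM (edgeR adjusted p = 0.01675), and Fgfr1 was 1.34-fold higher, at 520.2 ± 29.4 against 389 ± 70.4 CPM (edgeR adjusted p = 0.03677). Leaving out 1 library ended the call for both, with adjusted p up to 0.07557 for Fgfr2 and 0.1541 for Fgfr1.

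Markers of ectoderm, a tissue rich in Fgfr2 and Fgfr3, moved the same way, and all 15 were called higher in the palatal shelf. Of these, Krt14, Krt15, Esrp2, Cldn7 and Grhl3 passed the filter on low counts through the palatal shelf alone. So did others, among them Cdh1, Krt5, Perp, Esrp1 and Cldn6, which were too low in the controls to pass through them. These genes could only be called higher in the palatal shelf, so the count of 15 supports nothing. Esrp1, an epithelial splicing factor gene whose protein promotes use of the IIIb exon printed at the opening, was at 21.4, 34.8 and 27.5 TPM in wild-type palatal shelves and 0.312, 0.0547 and 0 TPM in maxillary controls. It was 27.6, 36.9 and 20.1 TPM in PI3K libraries and 0.992, 0.645 and 0.907 TPM in the cKO-labelled libraries. Chondrocyte and bone markers were called higher in 3 of 9 tested genes, macrophage markers in 7 of 8 and endothelial markers in 5 of 8. Acan and Aif1 among them also entered the test through the palatal shelf alone. Facial mesenchyme markers were higher in 4 and lower in 6 of 11, and red blood cell markers in 2 and 4 of 8. Neuron and glia markers were higher in 1 and lower in 5 of 7, and skeletal muscle markers were called in 0 of 2. Over all genes tested, 27.1% were called higher and 23.4% lower. The part of these cells in the receptor and ligand values was not tested.

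Etv1 was the member lower in the palatal shelf, at 15.3 ± 3.53 against 32.4 ± 12.3 CPM (log2 fold change -1.08, SE 0.31, edgeR adjusted p = 0.02148). Its groups overlapped through control 3, at 17.8 CPM, and on the log2(TPM + 1) scale limma gave -0.64 with an adjusted p of 0.1591. Etv4 had a log2 fold change of -0.20 (95% interval -1.33 to 0.93) and Etv5 of 0.27 (95% interval -0.55 to 1.09). In wild-type palatal shelves and maxillary controls the summed TPM of the Etv genes overlapped, at 62.3 to 154.9 and 63.9 to 122.5, and in the cKO-labelled libraries it was 133.7 to 215.6. Without wild-type library 1 or 3, or without control 1 or 2, the count of members called was 4 of 10, without wild-type library 2 it was 6, and without control 3 it was 7. The calls lost in the former 4 cases were those of Fgfr1, Fgfr2 and Etv1.

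**Figure D4:**
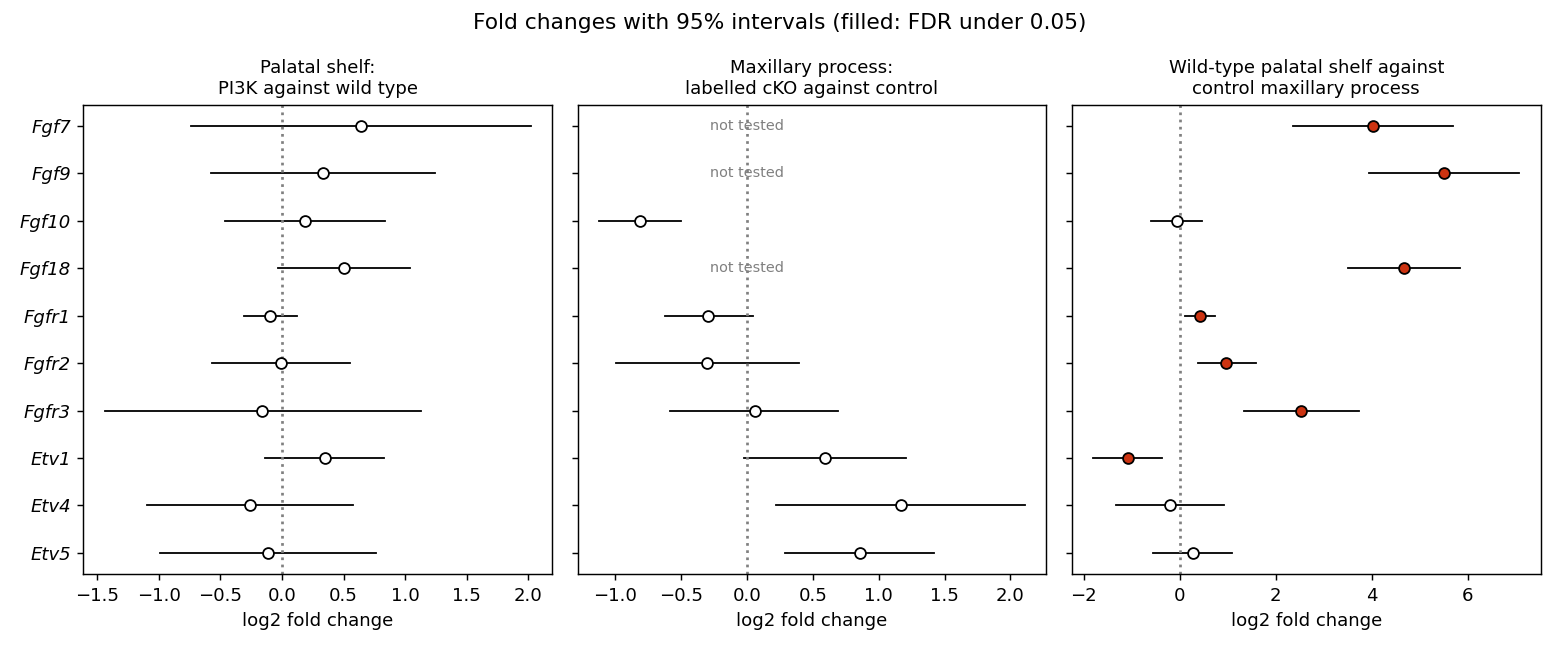
Log2 fold change (horizontal axes) of each member in the 3 comparisons, with 95% intervals from the edgeR fit; filled points pass an FDR of 0.05. Filled points occur only in the comparison of tissues on the right. Fgf7, Fgf9 and Fgf18 did not pass the default filter on low counts in the maxillary process and were not tested in that fit.

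Much of the rest of the pathway differed between the tissues as well, in a comparison where 50.6% of all genes did. Feedback inhibitors were split, with Spry1 (15.7 to 68.7 CPM, log2 fold change 2.14) and Spry2 (0.75) higher and Dusp4 (-0.78) and Il17rd (-1.05) lower in the palatal shelf, 2 and 2 of 10. Heparan sulfate enzymes were higher in 5 of 11 and lower in 0, led by Hs6st1 (log2 fold change 1.97) and Hs6st2 (1.62), which add sulfate to heparan sulfate. Core proteins were higher in 5 of 10, among them Gpc6 (2.08) and Sdc4 (1.95), and lower in 2, Gpc2 (-0.55) and Sdc1 (-0.43). Of other receptors and co-receptors, Flrt1 (3.12) and Flrt2 (1.58) were higher and Fgfrl1, a receptor without a kinase domain, was lower (-0.43). Fgfbp1, which releases FGFs from matrix, was at 0 CPM in the 3 controls and at 5.56 ± 1.44 CPM in the palatal shelf. It passed the filter on low counts through the palatal shelf alone, so it could only be called higher there.

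Several of the remaining genes were at or near 0 in the controls and passed the filter on low counts through the palatal shelf alone, so their calls could only be of higher levels there and their number supports nothing. These were Fgf1 (log2 fold change 3.96), Fgf17 (2.19) and Fgf16, which was at 0 CPM in the 3 controls and 0.589 ± 0.241 CPM in the palatal shelf, 3 of 4 other ligands tested, and the FGF homologous factors Fgf12 (3.30) and Fgf14 (3.29). Fgf11, another of the 4 homologous factors tested, was also higher (2.79). The adaptors and RAS-ERK core were split, 4 higher and 6 lower of 18, with Shc1 (0.85) and Gab1 (0.66) among the higher and Plcg1 (-0.55) and Map2k2 (-0.39) among the lower. Other ETS factors were higher in 6 and lower in 4 of 14, with Elf4 (1.35) and Erg (1.24) against Fli1 (-1.59) and Etv6 (-0.46). Every gene named in these lists had an adjusted p under 0.05 by edgeR, with values from 7.543e-05 for Hs6st1 to 0.03539 for Gpc2.

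The members were next compared with each other within groups. For each of the 45 pairs, the deviations of log2 CPM from the group mean were correlated over the 12 libraries, with a 2-sided exact permutation test over the 1296 orders within groups. Etv4 and Etv5 rose and fell together among libraries of the same group (Pearson r = 0.88, Spearman rho = 0.89, exact permutation p = 0.003086, adjusted p = 0.03472). Fgfr2 ran against Etv5 (r = -0.88, rho = -0.92, exact permutation p = 0.001543, the smallest found, adjusted p = 0.03472). Fgfr1 ran against all 3 Etv genes: Etv1 (r = -0.92, rho = -0.84, exact permutation p = 0.00463, adjusted p = 0.04167), Etv4 (r = -0.87, rho = -0.84, exact permutation p = 0.002315, adjusted p = 0.03472) and Etv5 (r = -0.81, rho = -0.85, exact permutation p = 0.002315, adjusted p = 0.03472). These 5 of the 45 pairs passed an adjusted p of 0.05, and for Fgfr1 and Etv1 the adjusted permutation p of rho was 0.07639.

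The 5 relations had the same sign in both tissues. They were picked by their correlation over these same libraries, so the values by tissue are descriptions and no independent support. Within the palatal shelf r was 0.90 for Etv4 and Etv5, -0.97 for Fgfr2 and Etv5, and -0.88, -0.70 and -0.92 for Fgfr1 with Etv1, Etv4 and Etv5. Within the maxillary process the values were 0.95, -0.85, -0.95, -0.97 and -0.96. The 2 libraries farthest from the median of the first gene named in a pair were also left out. For Etv4 and Etv5 these were control 3 and wild-type library 2. For Fgfr2 and Etv5 they were control 3 and cKO library 1, and for Fgfr1 controls 1 and 3. Without them, r was 0.81 for Etv4 and Etv5 and -0.93 for Fgfr2 and Etv5. It was -0.82, -0.75 and -0.83 for Fgfr1 with Etv1, Etv4 and Etv5. Fgf7 and Fgfr3 correlated at r = 0.89 (adjusted permutation p = 0.06173), with 0.97 in the palatal shelf and 0.19 in the maxillary process. The latter value rests on few counts, as Fgf7 was near the limit of detection there. All genes of a library share its RNA, its depth and its scaling, and the deviations show differences between libraries that the labels do not name.

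**Figure D5:**
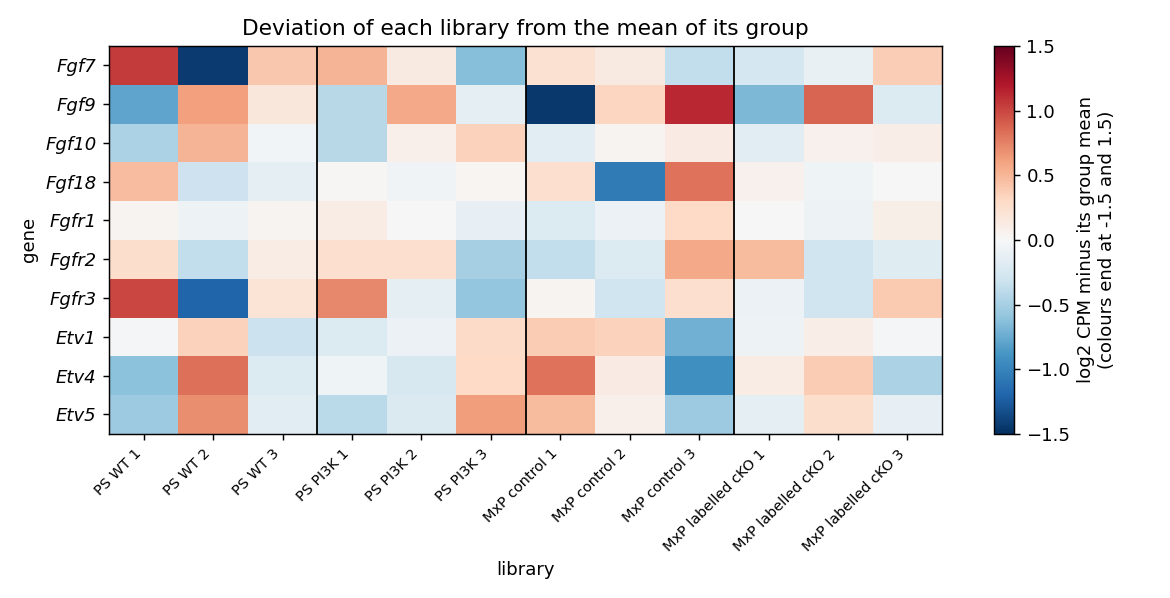
Deviation of each gene (rows) from its group mean in each library (columns), in log2 CPM, on a colour scale that ends at -1.5 and 1.5. Wild-type library 2, PI3K library 3 and control 1 are high for Etv4 and Etv5 and low for Fgfr2, and control 3 shows the reverse.

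For each member, the 2 genes whose deviations correlated best with its own over the 12 libraries were sought (for Etv5, 1 of them is given), out of 11434 genes with a mean of at least 5 CPM (11435 for Fgf7 and Fgf18). Etv5 was followed by Bod1 (r = 0.96), Etv4 by Dennd6a (0.96) and Cfl1 (0.95), and Etv1 by Rce1 (0.94) and Sdha (0.93). Fgfr1 was followed by Pappa2 (0.98) and Plec (0.97), Fgfr2 by Anxa4 and Tmod3 (0.95 each), and Fgfr3 by Smpd3 (0.96) and Fut8 (0.95). Fgf10 was followed by Zfp422 (0.98) and Zscan29 (0.97), Fgf9 by Fez1 (0.96) and Kyat1 (0.90), Fgf7 by Sec11c (0.94) and Rgs7bp (0.91), and Fgf18 by Meox2 (0.92) and Gm3226 (0.86). For the genes most like Fgf18, Spearman's rho was 0.59 for Meox2 and 0.43 for Gm3226. In the maxillary process Fgf7, Fgf9 and Fgf18 were near the limit of detection, so their deviations there rest on few counts. Fgf9 deviated by -1.45 in control 1, at an estimated count of 0, and Fgf18 by -1.06 in control 2, at 1. The best of so many genes correlates highly with any pattern over 12 libraries, so these are descriptions without a p.

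A gene's effective length, the ratio of its estimated count to its TPM, moves when the mix of long and short transcripts moves, and it was compared because the study concerned splicing. In the maxillary process 0 of 7 members passed the FDR of 0.05 by limma, where 1 of 11002 genes did (0.00909%), and 1 member, Fgfr2, had an unadjusted p under 0.05 (5.16% of all genes). Fgfr2 had log2 effective lengths relative to the median gene of 0.23, 0.24 and 0.21 in the controls against 0.15, 0.14 and 0.14 in the cKO-labelled libraries. The groups did not overlap, and the shift of -0.08 (SE 0.01) had an unadjusted p of 0.0006894 and an adjusted p of 0.5657 by limma. Fgfr3 had a shift of 0.70 (SE 0.47, limma adjusted p = 0.8595), which rested on control 2 at -1.11 beside 0.55 and 0.23 in the other controls; without control 2 it was 0.20.

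In the palatal shelf 0 of 10 members passed the FDR of 0.05 in effective length by limma, where 1 of 12907 genes did (0.00775%), Pdgfra itself (shift -0.58, SE 0.02, adjusted p = 0.002246). Fgfr3 was the 1 member with an unadjusted p under 0.05 (3.9% of all genes), at 0.15, 0.05 and 0.07 in wild type and 0.34, 0.48 and 0.18 in PI3K libraries, without overlap (shift 0.25, SE 0.08, limma unadjusted p = 0.02856, adjusted p = 0.9979). For the other 9 members the shifts lay between -0.02 and 0.12.

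Where the gene models overlap others, a level is less certain. Fgfr2 in GENCODE spans chromosome 7 from 130162451 to 133123350 (GRCm38, minus strand), a model of 2960.9 kb that covers 14 other protein-coding models on the same strand and shares 314 of its 10328 exonic bases with them or other genes of that strand. Fgfr3 (chromosome 5, 33721674 to 33737068, plus strand) shares 998 of 7158 exonic bases with a gene of the opposite strand, Fgf10 (chromosome 13, 118669791 to 118792115, plus strand) 123 of 4601 and Fgfr1 (chromosome 8, 25513654 to 25575718, plus strand) 164 of 9875. Whether strand was used in the counting is not given in the sources used here. The remaining members share 0 exonic bases with another gene: Etv5 lies on chromosome 16 (22381309 to 22439719, minus strand), Etv4 on chromosome 11 (101769742 to 101785371, minus), Etv1 on chromosome 12 (38779380 to 38870484, plus), Fgf7 on chromosome 2 (126034658 to 126091185, plus), Fgf9 on chromosome 14 (58070547 to 58112720, plus) and Fgf18 on chromosome 11 (33117430 to 33147400, minus).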

How the data were processed

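Groups were taken from the labels. Estimated counts per gene and TPM, each with 1 column per library, were deposited by the authors in separate tables for the palatal shelf and the maxillary process, with no gene filtered out. The submitters' processing notes name Salmon 1.1.0, STAR 2.7.0, DESeq2 1.28.1 and the build mm10, without their roles; trimming, transcript index and strand are not given in the sources used here. TPM values, as deposited by the authors, are scaled for length and depth within each library. Identifiers were matched to GENCODE M21 (GRCm38) without the version suffix (53355 of 53392).

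After rounding of the estimated counts to integers, genes were tested with edgeR 4.0.16 under R 4.3.3 (quasi-likelihood F-test, TMM, default filter on low counts, Benjamini-Hochberg adjustment over all genes tested), each comparison on its own 6 libraries, with an FDR of 0.05 as threshold. CPM are rounded counts divided by the TMM-scaled library total of that comparison, so the level of a library differs slightly between comparisons. Levels per library are from the fits within a tissue. The deviations of the members and of the genes most like them are from log2 CPM (prior count 2) of all 12 libraries filtered and scaled together. The correlations of replicate numbers used the libraries of each comparison. Effective length was log2(estimated count / TPM), centred on the median gene of each library, for genes with at least 50 estimated counts in all 6 libraries, tested with limma 3.58.1. Alternatives were DESeq2 1.42.0, other scalings and filters, limma on log2(TPM + 1) and log2(TPM + 0.1), a replicate block, 1 fit of all libraries, and leaving out each library. On simulated data with 200 changed genes, edgeR recovered 74% of 2-fold and 93% of 4-fold changes in the maxillary comparison (14254 genes), 9 of 176 calls were false, and DESeq2 made 44 false calls among 225. In the palatal shelf comparison (16525 genes) edgeR recovered 75% and 97%. The changed genes were drawn from those with a mean of at least 5 CPM, so these rates do not cover lower genes. Counts were drawn from the edgeR model with the fitted spread of each gene. No libraries were duplicates: counts of each pair within a group differed by 11.7 to 65.1 times sampling noise (chi-square per degree of freedom).

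Members and gene lists (8 of the pathway, 8 of markers) were chosen with earlier results of these data known. The genes named were all members, Srsf3 and Pdgfra, in each pathway list every gene past the FDR where there were at most 4, otherwise the 2 largest rises and falls with a mean of at least 5 CPM, or the smallest p where none passed, and the 2 genes most like each member. Spry4, shown beside Spred2 in the maxillary process, and the markers Epcam and Esrp1 were chosen after their values were seen. RefSeq promoter windows were found for 8 of the 10 members. Of the items these rules select, 1 gene and 1 sequence are not reported here.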

Additional observations from a re-analysis of the deposited data

How the results depend on the processing

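With 3 libraries a group, the interval of most members includes a change of 1.5-fold or more. The 3 low ligands did not pass the default filter on low counts in the maxillary process, and only fits without that filter included them. In the Srsf3 comparison the count of genes past the FDR of 0.05 was 12 (8 higher, 4 lower), and it was 143 without a filter on low counts, 376 with DESeq2, 105 in 1 fit of all 12 libraries and 2 to 29 with a library left out; the cause was not tested. By limma on log2(TPM + 1) it was 12 (6 higher, 6 lower). Replicate numbers did not pair libraries throughout, and a partial pairing was not tested. Same-numbered libraries had correlations of deviations of 0.58, 0.21 and -0.23 in the palatal shelf, where wild-type library 2 correlated best with PI3K library 3 (0.46). In the maxillary process the values were 0.07, 0.11 and 0.25. There controls 2 and 3 correlated best with the cKO library of the same number, and control 1 with cKO library 2 (0.19). Between the tissues the values were -0.17, 0.05 and -0.01. With the replicate block the Srsf3 count was 40, with 0 members and Fgf10 at an adjusted p of 0.07449, the PI3K count was 0, the count between tissues was 6835, and both effective-length counts were 0. The PI3K count of 0 was 4 with DESeq2 and 0 with any library left out. Effective-length counts of 1 were 31 (PI3K) and 4 (Srsf3) without centring, 2 (Srsf3) at a minimum count of 20, and 0 to 1 and 0 to 5 with a library left out. Between tissues the count of 7965 (4274 higher, 3691 lower) was 5877 to 8473 with a library left out, 7018 (4843 higher, 2175 lower) and 6970 (4804 higher, 2166 lower) by limma on log2(TPM + 1) and log2(TPM + 0.1), and 7782 (4638 higher, 3144 lower) with upper quartile scaling. Signs turned by limma on the 2 TPM scales for Fgfr3 in the Srsf3 comparison (-0.52, -0.67) and, between tissues, for Fgf10 (0.04, 0.04) and Etv4 (0.09, 0.09). Without centring, effective-length shifts turned to -0.01 for Fgf10 and Fgf18 (PI3K) and to 0.18, 0.21 and 0.26 for Fgfr2, Etv1 and Etv4 (Srsf3). With a library left out, fold changes ran from -0.01 to 0.68 for Fgf9, -0.17 to 0.21 for Fgfr2, -0.59 to 0.45 for Fgfr3, -0.51 to 0.29 for Etv4 and -0.49 to 0.33 for Etv5 (PI3K), from -0.59 to 0.06 for Fgfr2 and -0.16 to 0.21 for Fgfr3 (Srsf3), and from -0.34 to 0.15 for Fgf10, -0.72 to 0.25 for Etv4 and -0.15 to 0.53 for Etv5 (tissues). Effective-length shifts ran from -0.00 to 0.04 for Fgf9, 0.00 to 0.01 for Fgf10 and Fgf18, -0.01 to 0.04 for Fgfr2 and -0.03 to 0.11 for Etv1 (PI3K), and from -0.18 to 0.03 for Etv1, -0.11 to 0.06 for Etv4 and -0.03 to 0.19 for Etv5 (Srsf3). The within-tissue correlations of pairs and those without the 2 farthest libraries were chosen after seeing the data.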
